A study of Homo sapiens with 12 samples.

Results

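The 10 genes described here encode the enzymes that hydroxylate and crosslink collagen and the chaperone that escorts procollagen: P4HA1, P4HA2, P4HB, PLOD1, PLOD2, PLOD3, SERPINH1, LOX, LOXL1 and LOXL2. They were taken as a list of named symbols, 10 of the 38716 in the tables, and all 10 were found under these names. IMR90 cells, a line of normal human fetal lung fibroblasts, were sampled while proliferating (Pro) and after continuous passage to replicative exhaustion, in replicative senescence (Sen). Each state is represented by 3 lysates, and each lysate gave 1 Ribo-seq library, which counts ribosome-protected mRNA fragments (RPF), and 1 poly(A) RNA-seq library, so that 12 libraries fall into 4 groups of 3. The labels give no drug or genetic change between the groups, although the proliferating RNA-seq tables carry an unexplained tag, DSMO, in their names. All lysates were made in a buffer with cycloheximide, which holds ribosomes in place. The labels name a pair of single isolates of the line without tying a library to either. By the study's methods the 3 lysates of a state came from cells grown as independent replicas, so the p-values measure the spread between these.

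Collagen chains enter the endoplasmic reticulum (ER), where prolyl 4-hydroxylase converts prolines to 4-hydroxyproline, which stabilises the triple helix. Lysyl hydroxylases modify lysines in the helix and the telopeptides and so set which crosslinks can form, and the chaperone HSP47, encoded by SERPINH1, binds folded procollagen on its way to the Golgi. Outside the cell, the copper-dependent lysyl oxidases deaminate lysine and hydroxylysine side chains, the step that starts covalent crosslinking of fibrils, and fibroblasts are the main source of all these proteins in lung connective tissue.

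Depth differed far more between Ribo-seq than between RNA-seq libraries. The RNA-seq libraries held 7902427 to 14144455 reads on mRNA (5′ UTR, CDS and 3′ UTR together). The Ribo-seq libraries of Pro 1 and Sen 2 held 54421 and 54708 reads in coding sequence (CDS), and the other 4 held 583798 to 1718521. In these shallow libraries only 34.4% and 15% of the assigned reads lay in the CDS, against 54.7% to 88.8% in the others. There, 3 reads correspond to 55.1 and 54.8 CPM (counts scaled to 1000000 reads per library, so a measure of a gene's share). These floors use the CDS totals, without the TMM scaling of the levels below. All 9 fibroblast markers on the list were detected in RNA-seq at a summed 25990 to 29910 CPM, and 6 epithelial markers reached at most 2.31 CPM together. Of the endothelial and haematopoietic markers, TEK and CD68 alone passed the filter on low counts, and both were higher in senescence in mRNA (log2 fold changes 0.79 ± 0.078 and 0.70 ± 0.093); summed over the lists these markers lay at 54.4 to 105 and 19.4 to 35.5 CPM. Their part in the results below was not tested.

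In senescent cells, most of the enzymes of collagen modification were higher both as mRNA and as translated message, with PLOD2, P4HA2, PLOD1 and LOX in front (3.42-, 2.78-, 2.26- and 2.1-fold in mRNA). SERPINH1 and LOXL1 were exceptions, with less mRNA in senescence but RPF levels that did not pass the test. PLOD3 was another, higher in RPF while its mRNA change did not pass. Of the 10 genes, 7 were higher and 2 lower in mRNA at a Benjamini-Hochberg adjusted p under 0.15 in edgeR's quasi-likelihood test. That threshold, the one used in the study, is passed by 73.6% of the 12787 genes tested in mRNA (36.6% higher and 37% lower), so the count of calls is read against that share. In RPF 8 were higher and 0 lower, against 27.5% higher and 26.9% lower of 7521 genes (54.4% in all). No member was lower at an unadjusted p under 0.05 either, nor with DESeq2, while limma's voom called 1, SERPINH1. For translational efficiency (TE), the change in RPF beyond that in mRNA of the same lysates, 4 were higher and 0 lower, against 6.32% higher and 3.73% lower of 7473 genes (10% in all); at an unadjusted p under 0.05, 5 were higher and 1, PLOD2, was lower, and DESeq2 and voom also called 0 lower. The median log2 fold change of the 10 genes was 0.65 in mRNA, 0.89 in RPF and 0.28 in TE, beside -0.006, -0.003 and 0.026 over all genes tested. When libraries were scaled by their totals instead of TMM factors, the median over all genes moved to -0.11 in mRNA, -0.14 in RPF and -0.046 in TE, so all changes here are relative to the other mRNAs. In bulk lysates, a change in the number of cells that make a message and a change in its amount per cell cannot be told apart.

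**Figure D1:**
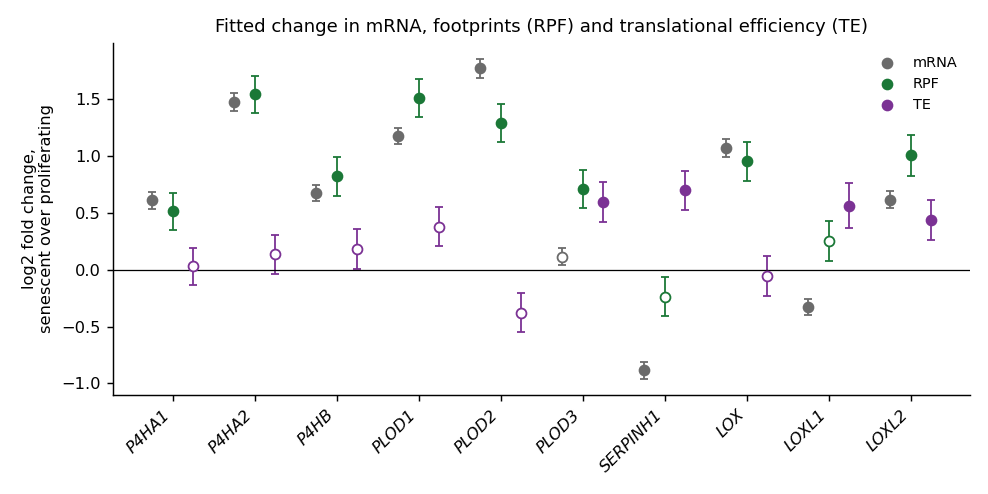
Fitted log2 fold change, senescent over proliferating, of the 10 genes in mRNA (grey), RPF (green) and TE (purple); bars are standard errors, filled points have an adjusted p under 0.15 and open points do not. SERPINH1 has the lowest mRNA point and the highest TE point, and PLOD2 the highest mRNA point and the lowest TE point.

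In mRNA the 3 senescent lysates all lay on one side of the 3 proliferating ones for 9 of the 10 genes, as they did for 67.8% of all genes tested. In RPF the groups were apart for 6 of 10 (32.5% of all genes) and in TE for 4 of 10 (16.6%).

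**Figure D2:**
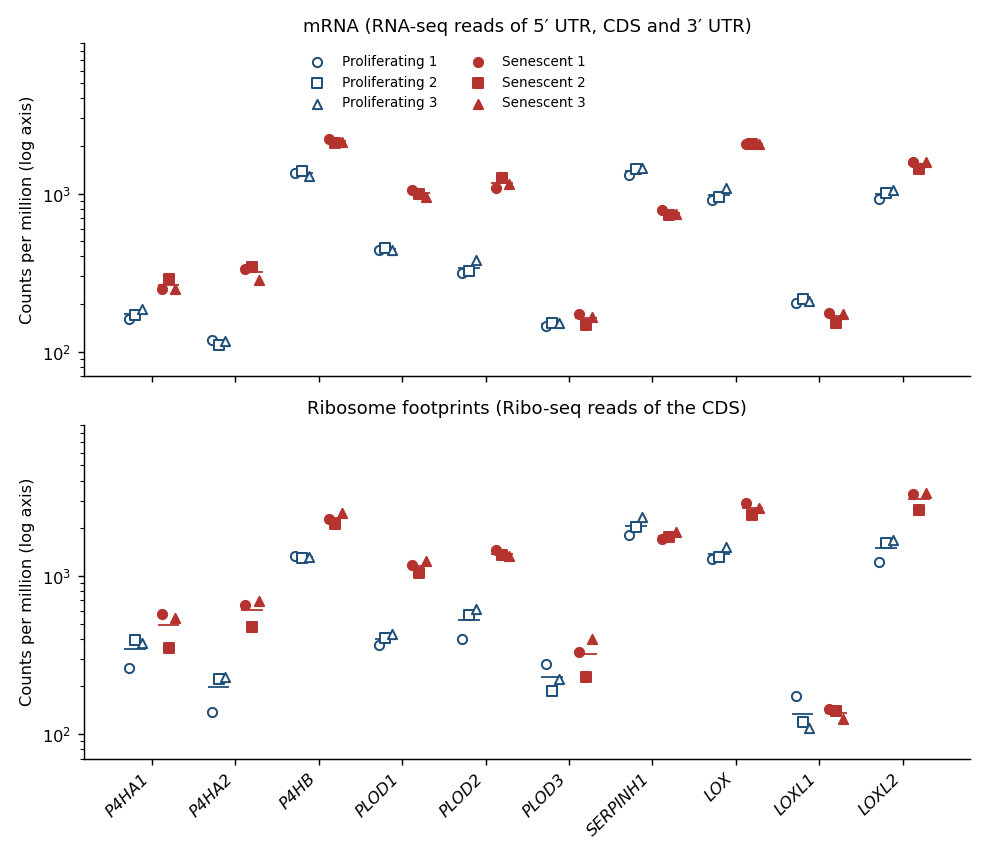
Level of each gene in every library, in CPM on a log axis, for mRNA (top) and RPF (bottom); open blue symbols are proliferating and filled red symbols senescent lysates, the symbol shape is the replicate number and the short lines are means. In mRNA PLOD3 alone has overlapping groups; in RPF P4HA1, PLOD3, SERPINH1 and LOXL1 do.

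LOX, PLOD2 and P4HA1, which were all higher in senescence, belong to the genes long known as targets of the hypoxia-inducible factor HIF-1. The response element of HIF-1 can hold the core ACGTG, the only form searched here. The promoter letters around this core are shown for that reason, although nothing in these data measures a factor's binding. In RefSeq's promoter sequences (GRCh38.p14), 9 of the 10 genes had an entry, LOXL2 being the one without, and the 250 bases before each gene's most upstream RefSeq start were searched for ACGTG on both strands (CACGT on the printed strand). The core occurred in 3 of the 9, which were the genes named above, and in 18.6% of the 27305 genes in the table. No full list of HIF-1 targets was drawn up, so nothing is read from this coincidence. P4HA2, P4HB and PLOD1, also higher in senescence in mRNA and RPF, had an entry and no match in this window. Naming LOX, PLOD2 and P4HA1 is no statement on whether other members are targets. The matches are printed 5′ to 3′ on the gene's strand, which is the minus strand for all 3 genes, with the core in capitals and with positions found by exact match to GRCh37:
LOX, 185 bases before the start, chr5:121414125-121414149: tccctgtgcaACGTGtctgggggga
LOX, 116 bases before the start, chr5:121414056-121414080: gtccgccttgCACGTttccaatcgc
LOX, 98 bases before the start, chr5:121414038-121414062: caatcgcattACGTGaacaaatagc
LOX, 42 bases before the start, chr5:121413982-121414006: aactttgcaaACGTGccagaaagtt
PLOD2, 200 bases before the start, chr3:145879157-145879181: tgagcctccaCACGTagccgcaggc
PLOD2, 146 bases before the start, chr3:145879103-145879127: aacagtccagACGTGgggcccagga
P4HA1, 86 bases before the start, chr10:74856696-74856720: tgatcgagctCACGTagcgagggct
GENCODE's bounds on GRCh37, printed with each gene, reach further upstream than these RefSeq starts, so 6 of the 7 windows lie inside the gene intervals and the first LOX window alone reaches outside. The LOX windows at 116 and 98 bases share a few letters. None of the 7 cores is part of the palindrome CACGTG, an E-box. A match describes letters and is not a binding site, and a promoter with no match was only searched in this window and for this core.

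Prolyl 4-hydroxylase is a tetramer of catalytic α subunits, from P4HA1 or P4HA2, and of β subunits, which are protein disulfide isomerase from P4HB. All 3 subunits were higher in senescence in mRNA and in RPF, the catalytic ones by different amounts. P4HA1 (GRCh37 chr10:74766975-74856732, minus strand) stood at 161, 170.5 and 186 CPM in the mRNA of Pro 1 to 3 and at 250.4, 288 and 251 CPM in that of Sen 1 to 3. Its groups did not overlap, and the fitted log2 fold change was 0.61 ± 0.077 (SE; edgeR adjusted p = 4.86e-07). P4HA1 footprints lay at 260.3, 395 and 377 CPM in the proliferating and 572, 352 and 540.5 CPM in the senescent lysates, where Sen 2, a library with 20 P4HA1 reads, was below Pro 2 and Pro 3. The RPF change of 0.52 ± 0.16 passed edgeR's test (adjusted p = 0.00718) but not that of DESeq2 (adjusted p = 0.212).

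P4HA2 (chr5:131525840-131631008, minus strand), the other catalytic subunit, had the larger change. Its mRNA went from 119, 110.4 and 118 CPM to 334, 345 and 282 CPM, a log2 fold change of 1.47 ± 0.08 (edgeR adjusted p = 6.57e-13). Its footprints went from 139, 223 and 231 CPM, the first from only 8 reads in Pro 1, to 652, 475 and 692 CPM, a change of 1.54 ± 0.17 (adjusted p = 1.44e-12). In both layers every senescent value was above every proliferating one. PDLIM4, SLC22A4 and P4HA2-AS1 overlap P4HA2 on the opposite strand in GENCODE's annotation of GRCh37, with 8933, 530 and 1122 RNA-seq reads of their own over the 6 libraries, and whether counting used strand is not given in the sources used here. P4HB (chr17:79801035-79818732, minus strand), whose product also works as a general oxidoreductase of the ER, was at 1346, 1390 and 1297 CPM in proliferating and 2223, 2102 and 2108 CPM in senescent mRNA (0.67 ± 0.071, adjusted p = 3.22e-08). P4HB footprints were the most even of the set in the proliferating lysates, 1336, 1303 and 1326 CPM, and lay at 2297, 2145 and 2496 CPM in the senescent ones (0.82 ± 0.17, adjusted p = 5.97e-05). TE of the 3 subunits did not pass the test: the fitted change was 0.03 ± 0.16 for P4HA1, 0.14 ± 0.17 for P4HA2 and 0.18 ± 0.18 for P4HB (edgeR adjusted p = 0.941, 0.714 and 0.618). For P4HA1 the mean TE was lower in senescence (0.87 ± 0.23 against 0.79 ± 0.47, SD, n = 3) while the fitted change was slightly positive.

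Of the lysyl hydroxylases, PLOD1 modifies helix lysines of fibrillar collagen, PLOD2 the telopeptide lysines that lead to stable pyridinoline crosslinks, and PLOD3 also glycosylates hydroxylysine. PLOD1 and PLOD2 rose in both layers, and PLOD3 passed the test in footprints but not in mRNA. PLOD1 (chr1:11994262-12035595, plus strand) had 439.7, 452 and 439 CPM of mRNA in proliferating and 1053, 994 and 956 CPM in senescent lysates, a log2 fold change of 1.175 ± 0.071 (edgeR adjusted p = 3.72e-12). The footprints of PLOD1 lay at 364, 402 and 432 CPM and at 1174, 1037 and 1242 CPM, a change of 1.51 ± 0.17 (adjusted p = 5.27e-12). All values of one state were apart from those of the other, in TE as well (-0.36, -0.29 and -0.15 against 0.067, -0.003 and 0.29 log2 units), but the TE change of 0.38 ± 0.17 did not pass (adjusted p = 0.216). Without the shallow lysates Pro 1 and Sen 2 it did (0.37, adjusted p = 0.0986).

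PLOD2 (chr3:145752926-145881512, minus strand) had the highest mRNA change of the 10 genes. Its mRNA was at 314, 323 and 379.5 CPM in the proliferating and 1088, 1248 and 1141 CPM in the senescent lysates (1.77 ± 0.084, edgeR adjusted p = 5.77e-14). Its footprints rose from 399, 568 and 614 to 1450, 1354 and 1338 CPM (1.29 ± 0.17, adjusted p = 1.34e-09). TE of PLOD2 was 0.26, 0.69 and 0.57 in the proliferating and 0.33, 0.051 and 0.14 log2 units in the senescent lysates, overlapping through Pro 1, and the change of -0.38 ± 0.17 missed the threshold (adjusted p = 0.212). It passed, in the same direction, in 7 of 18 other settings, among them the fit without Pro 1 and Sen 2.

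PLOD3 (chr7:100849258-100861701, minus strand) differed little in mRNA, 145, 152 and 152 CPM against 174, 148 and 166 CPM, with overlapping groups and a log2 fold change of 0.12 ± 0.074 (edgeR adjusted p = 0.175). Leaving out Sen 2 made this change pass (0.18, adjusted p = 0.0291). PLOD3 footprints were 278, 187 and 222 CPM and 329.6, 228 and 398 CPM, and although Pro 1 (16 reads) exceeded Sen 2 (13 reads), the fitted change was 0.71 ± 0.17 (adjusted p = 0.000328). With DESeq2 the RPF change of 0.62 passed only narrowly (adjusted p = 0.141). TE changed by 0.60 ± 0.17 (edgeR adjusted p = 0.0356), with overlapping groups (Pro 1 at 0.86 above Sen 2 at 0.61 log2 units). This TE call was lost in 6 of 18 other settings. ZNHIT1 on the opposite strand overlaps PLOD3 in the same annotation.

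SERPINH1 (chr11:75273101-75283828, plus strand) was the only one of the 10 genes whose mRNA and footprints parted by a TE change past an adjusted p of 0.01. Its mRNA fell from 1316, 1429 and 1443 CPM in Pro 1 to 3 to 791, 734 and 742 CPM in Sen 1 to 3. Every senescent value was below every proliferating one, and the log2 fold change was -0.89 ± 0.073 (edgeR adjusted p = 5.51e-10). The HSP47 footprints were 1822, 2038 and 2369 CPM in the proliferating and 1714, 1776 and 1888 CPM in the senescent lysates, with Sen 3 above Pro 1. Their change of -0.24 ± 0.17 did not pass (adjusted p = 0.269), but it did in 5 of 15 other settings, always as a decrease (-0.37 with library totals, -0.35 without Pro 1 and -0.295 without Pro 1 and Sen 2, adjusted p = 0.0215, 0.0351 and 0.0346). TE was 0.35, 0.38 and 0.59 log2 units in the proliferating and 1.03, 1.21 and 1.26 in the senescent lysates. All 3 senescent values lay above all 3 proliferating ones, and the fitted change was 0.70 ± 0.17 (adjusted p = 0.00947). This call was lost without Pro 2 (0.66, adjusted p = 0.245) or without Sen 3 (0.62, adjusted p = 0.253) and with DESeq2 (0.68, adjusted p = 0.798).

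The lysyl oxidases split, with LOX and LOXL2 higher and LOXL1 lower in mRNA. LOX (chr5:121398890-121414108, minus strand), the founding member of the family, was at 909.8, 954 and 1084 CPM in proliferating and 2067, 2071 and 2059 CPM in senescent mRNA (1.07 ± 0.077, edgeR adjusted p = 6.34e-11). The 3 senescent mRNA values were almost equal (SD 6.03 CPM). LOX footprints followed, from 1284, 1321 and 1520 CPM to 2897, 2426 and 2694 CPM (0.95 ± 0.17, adjusted p = 5.23e-06), and TE did not pass the test (-0.056 ± 0.18, adjusted p = 0.898). SRFBP1 overlaps LOX on the opposite strand.

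LOXL2 (chr8:23154410-23282841, minus strand), which acts on type IV collagen as well, had 930, 1006 and 1048 CPM of mRNA in the proliferating and 1584, 1420 and 1576 CPM in the senescent lysates (0.62 ± 0.076, edgeR adjusted p = 2.72e-07). Its footprints rose from 1232, 1624 and 1676 CPM to 3293, 2619 and 3340 CPM (1.01 ± 0.18, adjusted p = 2.64e-06). TE of LOXL2 was 0.29, 0.56 and 0.55 in the proliferating and 0.97, 0.81 and 0.998 log2 units in the senescent lysates, without overlap, and its change of 0.44 ± 0.18 lay just inside the threshold (adjusted p = 0.148). In 11 of 18 other settings it lay outside. ENTPD4 overlaps LOXL2 on the same strand.

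LOXL1 (chr15:74218330-74244478, plus strand), which is needed for elastic fibres, was the weakest of the set in footprints, with 559 CDS reads over all 6 Ribo-seq libraries. Its mRNA fell from 204, 216 and 209.8 CPM to 177, 153 and 173 CPM (-0.33 ± 0.073, edgeR adjusted p = 0.000469). Footprints of LOXL1 were 174, 119 and 108 CPM and 144, 141 and 124 CPM, on almost the same mean (134 ± 35 against 136 ± 10.5, SD, n = 3), and the fitted change was 0.25 ± 0.18 (adjusted p = 0.257). The highest value, that of Pro 1, came from 10 reads. TE changed by 0.56 ± 0.20 (adjusted p = 0.0896), a call that 8 of 17 other settings did not make. LOXL1-AS1 overlaps it on the opposite strand.

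**Figure D3:**
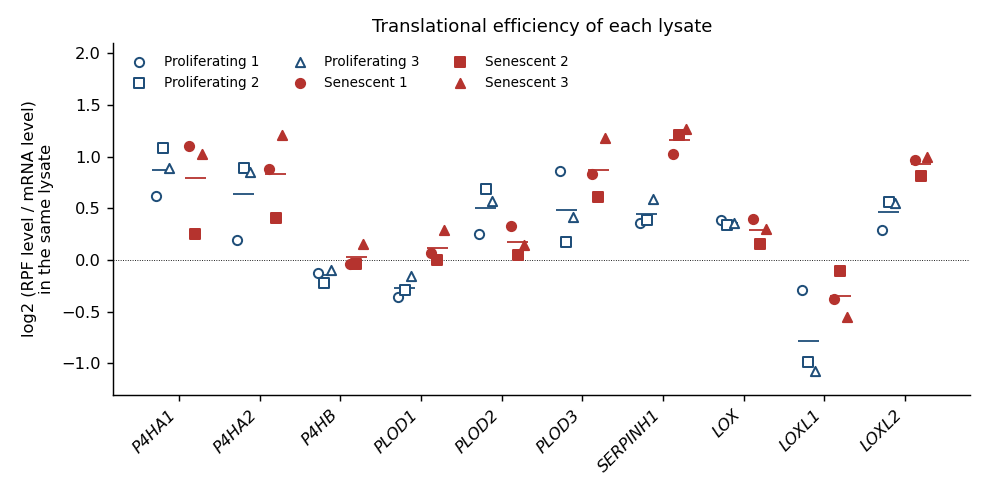
TE of each gene in each lysate, as the log2 ratio of its RPF level to its mRNA level (0 means that it takes the same share of both); open blue symbols are proliferating and filled red symbols senescent lysates, and short lines are means. The groups are apart for P4HB, PLOD1, SERPINH1 and LOXL2, with the widest gap for SERPINH1, and LOXL1 lies below 0 in all 6 lysates.

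The TE calls varied with the lysates used. Of the 4 genes higher in TE, SERPINH1 and PLOD3 passed an adjusted p under 0.05. Leaving out 1 lysate at a time gave 0 to 4 calls: with edgeR none remained past the threshold without Pro 2 or without Sen 3, where 2 genes were still higher at an unadjusted p under 0.05 in each case. One call was left without Pro 3 and 2 without Sen 1. DESeq2 made 0 TE calls among the 10 genes (1 higher at an unadjusted p under 0.05) and voom made 1.

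Per kilobase of coding sequence, the order of the 10 genes differed between the states. In proliferating cells SERPINH1 led the CDS reads of both library types, at 726 ± 37.4 CPM per kb in mRNA and 1656 ± 219.6 in RPF (SD, n = 3). In senescent cells P4HB led in mRNA, at 967 ± 35.2 CPM per kb, followed by LOX at 879.6 ± 40.6, with SERPINH1 at rank 5 and 397 ± 18.8. In senescent RPF the order was LOX at 2136 ± 189, P4HB at 1518 ± 116 and SERPINH1 at 1429 ± 70.3 CPM per kb. The last 2 did not differ beyond their spread, nor did SERPINH1 and LOXL2 at 1328 ± 174. LOXL1 was last in RPF in both states, at 77.6 ± 20.3 and 79.2 ± 6.09 CPM per kb.

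The balance within each enzyme family was read from the ratio of members in the same library, which needs no scaling between libraries. For mRNA, the reads include both UTRs but were divided by coding length alone, so UTR reads raise a gene's mRNA ratio and share. Levels in mRNA and RPF are thus not on the same scale, and the change between states is what is compared. The ratio of P4HA1 to P4HA2 reads per coding length was 1.49 in proliferating and 0.82 in senescent mRNA and 1.75 and 0.8 in RPF (geometric means, n = 3). P4HA2 thus held 40.2 ± 2.03% and 54.9 ± 2.09% of the α subunit message, and 36.3 ± 1.61% and 55.7 ± 2.14% of its footprints (SD), and was the larger of the pair in every senescent library and the smaller in every proliferating one. PLOD3 made up 16.1 ± 0.36% of lysyl hydroxylase mRNA in proliferating and 7.06 ± 0.72% in senescent lysates, and 20.2 ± 5.71% and 11.2 ± 2.33% of the footprints. PLOD2 made up 35.4 ± 2.41% and 48.9 ± 2.65% of the mRNA, and 44.4 ± 5.97% and 47.6 ± 3.4% of the footprints. In mRNA the ratio of PLOD2 to PLOD1 was 0.73 in proliferating and 1.11 in senescent lysates, without overlap, while in RPF it was 1.25 in proliferating and 1.15 in senescent lysates, with overlapping groups.

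Among the lysyl oxidases, LOXL1 took 9.15 ± 0.6% of the family's mRNA in proliferating and 4.04 ± 0.24% in senescent lysates, and 4.34 ± 1.54% and 2.25 ± 0.32% of its footprints (SD, n = 3). The ratio of LOX to LOXL2 was 1.83 and 2.51 in mRNA, without overlap, while in RPF it was 1.7 and 1.61, with overlapping groups (exact permutation test, two-sided, p = 0.6). This mRNA ratio includes UTR reads. In CDS reads alone, LOX and LOXL2 stood at 406 and 318 CPM per kb in proliferating and at 880 and 483 in senescent mRNA. Of 8 ratios compared, all 8 had groups that did not overlap in mRNA, and 5 had such groups in RPF. Within the PLOD and the LOX ratios, each follows from the others, so these are not separate results. No share over other gene pairs was computed. For single genes tested, the groups were apart in 67.8% in mRNA and 32.5% in RPF. With 3 libraries against 3 the exact permutation test cannot go below p = 0.1, which each ratio without overlap reached. After adjustment over the 8 ratios of a library type, the values of these ratios were 0.1 in mRNA and 0.16 in RPF.

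**Figure D4:**
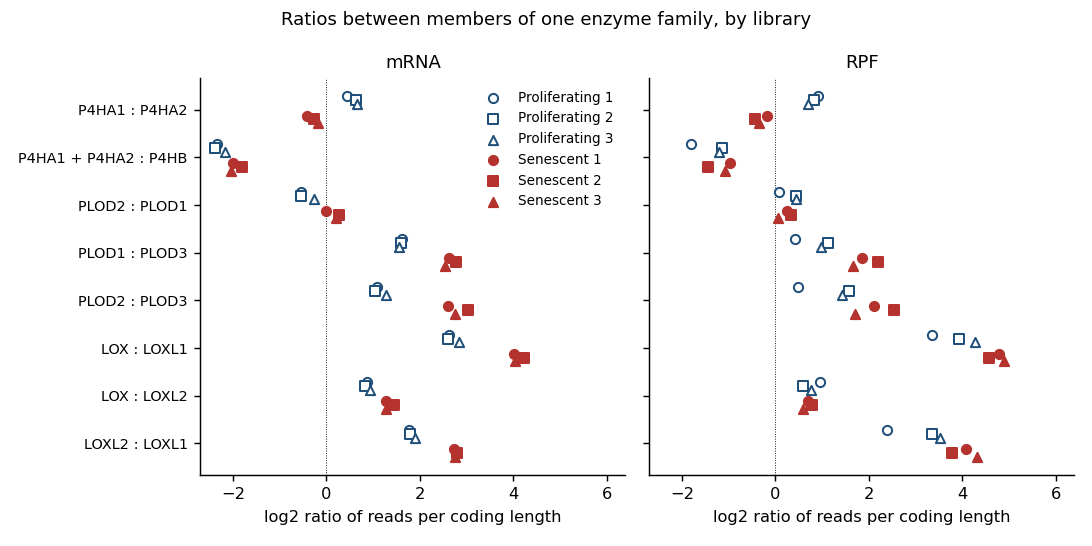
Log2 ratio of reads per coding length between members of one family in each library, for mRNA (left, with UTR reads) and RPF (right, CDS reads). Open blue symbols are proliferating and filled red symbols senescent lysates, and the dotted line marks equal reads per coding length. In mRNA the states are apart in all 8 ratios; in RPF they overlap for P4HA1 + P4HA2 to P4HB, PLOD2 to PLOD1 and LOX to LOXL2.

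The substrate of these enzymes was set beside them as the summed reads per coding length of COL1A1, COL1A2, COL3A1, COL5A1 and COL5A2, chains of the fibril-forming collagens. As in the family ratios, the mRNA values include UTR reads. Relative to this sum, 8 of the 10 genes were higher in senescence in mRNA with no overlap between groups, beside 33.2% of all genes tested, and SERPINH1 and LOXL1 were lower, beside 25.3%. In RPF 8 of 10 were higher with no overlap and 0 lower, beside 23.5% and 7.65% of all genes. The sum itself holds collagens that changed, such as COL3A1 below. The PLOD2 ratio was 3.6-fold higher in mRNA and 3.31-fold higher in RPF, that of PLOD1 2.37- and 3.59-fold, and that of P4HA2 2.91- and 3.87-fold. The SERPINH1 ratio to collagen in senescent mRNA was 0.57 of that in proliferating mRNA, but in footprints it was 0.195 in proliferating and 0.211 in senescent lysates (exact permutation test, two-sided, p = 0.7). The lowest p the design allows, 0.1, was reached by all 10 ratios in mRNA and by 8 in RPF, with adjusted values of 0.1 and 0.125 over the 10 ratios of each layer. Of the collagens themselves, COL3A1 changed by -0.93 ± 0.08 in mRNA and -0.81 ± 0.18 in RPF and passed both tests as lower, while COL1A1 passed neither (-0.10 ± 0.088 and -0.22 ± 0.21).

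Reads by region of the transcript gave a further view of the same messages. In RNA-seq, LOX had the highest share of its mRNA reads in the 3′ UTR, 35.1% to 43.5% over the 6 libraries, and PLOD3 and LOXL1 the lowest, 2.63% to 4.94% and 3.68% to 5.42%. Over all genes the share was 24.9 ± 0.22% in proliferating and 27.6 ± 1.14% in senescent lysates (SD, n = 3). Of the 10 genes, P4HB alone had groups that did not overlap, at 24.4 ± 1.11% and 25.8 ± 0.19%. How many of all genes had groups apart in this share was not counted, so nothing is read from this count. Ribo-seq reads in the 5′ UTR were few for most of the genes, 0.1 per 100 CDS reads for P4HB to 2.29 for PLOD3 over all libraries, and 6.95 over all genes. LOXL1 stood apart from the other 9, with 93 Ribo-seq reads in its 5′ UTR beside 559 in its CDS. In the 4 deeper libraries this was 31.2 and 14.3 per 100 CDS reads (Pro 2 and Pro 3) and 15.8 and 7.81 (Sen 1 and Sen 3). LOXL1 also had the highest share of RNA-seq reads in the 5′ UTR, 15.4% to 20.7%. Summed over the lysates of a state, 8 of the 10 genes had fewer 5′ UTR reads per 100 CDS reads in senescence, among them PLOD3 (4.08 in proliferating and 0.99 in senescent lysates), LOX (3.24 and 0.91) and LOXL2 (0.85 and 0.27), while P4HB (0.09 and 0.1) and PLOD2 (0.42 and 0.51) did not. Over all genes the values were 3.4 and 10.73. These shares carry no test, and how many of all genes moved either way was not counted. Some rest on few 5′ UTR reads, such as P4HA2 (3 in proliferating and 4 in senescent lysates), PLOD1 (6 and 4) and P4HB (3 and 5). Over all genes, Sen 1, the shallow Sen 2 and Sen 3 hold 89120, 60194 and 98701 of the 331604 Ribo-seq reads in 5′ UTRs. Sen 1 and Sen 3 stood at 5.33 and 16.9 per 100 CDS reads, against 3.91 and 2.89 in Pro 2 and Pro 3. For LOXL1 and LOX the shallow libraries add 3 and 0 reads.

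The wider pathway was read from lists of genes outside the 10. Over all genes tested, 36.6% were higher and 37% lower in mRNA, 27.5% and 26.9% in RPF and 6.32% and 3.73% in TE. The calls of every list are read against these shares. Of the other procollagen modification enzymes and chaperones, 10 of 16 were higher and 2 lower in mRNA. In RPF 7 of the 14 tested were higher and 0 lower (medians 0.2 in mRNA and 0.29 in RPF). Called either way were 75% in mRNA and 50% in RPF, near the 73.6% and 54.4% of all genes. P3H2, a prolyl 3-hydroxylase, had the highest change, from 163, 152 and 151 CPM to 619.8, 642 and 577 CPM in mRNA (1.98 ± 0.074) and from 86.8, 113 and 114 CPM to 509.8, 352 and 453 CPM in RPF (2.07 ± 0.17, edgeR adjusted p = 3.05e-17). Both groups were well apart in each layer. The lowest among those called in both layers was FKBP10, a prolyl isomerase of the ER (0.12 ± 0.069 and 0.36 ± 0.17). In TE, COLGALT1, which adds galactose to hydroxylysine, was higher (0.50 ± 0.19, adjusted p = 0.113) and FKBP14 lower (-0.69 ± 0.22, adjusted p = 0.0588). These and the other TE calls given here for genes of the 6 lists are edgeR's alone: DESeq2 and voom called 0 genes of any of these lists in TE, with at most 1 gene of a list in either direction at an unadjusted p under 0.05.

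Of the genes of propeptide cleavage, 4 were higher and 3 lower of 7 tested in mRNA, and 2 were higher and 1 lower of 4 in RPF. That is 100% and 75% called, beside 73.6% and 54.4% over all genes. PCOLCE, the enhancer of procollagen C-proteinase, fell from 173, 186 and 180.3 CPM to 37.5, 34.9 and 37.1 CPM in mRNA (-2.30 ± 0.076) and from 538, 269 and 289.7 CPM to 71.7, 87.9 and 77.8 CPM in RPF (-2.01 ± 0.19, edgeR adjusted p = 1.44e-14). FURIN, the convertase that activates several of these proteases, had the highest RPF change (1.37 ± 0.28, with 0.87 ± 0.085 in mRNA). BMP1, the C-proteinase, which also cleaves the LOX propeptide, was higher in TE (0.59 ± 0.19, adjusted p = 0.0695).

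For procollagen export from the ER, 10 of 19 genes were higher and 1 lower in mRNA, beside 36.6% higher and 37% lower over all genes. In RPF 4 of 17 were higher and 0 lower, beside 27.5% higher and 26.9% lower over all genes. CREB3L1, a transcription factor of the secretory pathway, and SAR1A, a GTPase of the COPII coat, were higher in both (0.48 ± 0.17 and 0.42 ± 0.16 in RPF). In TE SEC13 was higher (0.74 ± 0.16, edgeR adjusted p = 0.00231) and SAR1B lower (-0.66 ± 0.22, adjusted p = 0.0745). General ER folding had 8 higher and 0 lower of 13 in mRNA and 4 higher and 0 lower of 12 in RPF. These ran in RPF from ERO1A, the oxidase that recharges P4HB (0.89 ± 0.18), to the lectin chaperone CANX (0.36 ± 0.17). Of the folding genes 61.5% were called in mRNA and 33.3% in RPF, beside 73.6% and 54.4% over all genes. HYOU1 was higher in TE (0.56 ± 0.17, adjusted p = 0.0452).

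The fibrillar collagens had 3 higher and 2 lower of 7 in mRNA and 1 higher and 2 lower of 6 in RPF. Called either way were 71.4% and 50%, beside 73.6% and 54.4% over all genes. Their median TE change was -0.28. COL5A1 and COL11A1 were higher in mRNA (0.86 ± 0.09 and 1.63 ± 0.13). In RPF COL11A1 was higher (0.74 ± 0.305, edgeR adjusted p = 0.0426) and COL5A1 did not pass (0.28 ± 0.18). Both were lower in TE (-0.57 ± 0.19 and -0.96 ± 0.34, edgeR adjusted p = 0.0716 and 0.0937), COL11A1 on at most 1 read in each shallow library. COL1A2 was lower in RPF (-0.39 ± 0.20, adjusted p = 0.106) and COL5A2 did not pass there (0.12 ± 0.17).

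Hypoxia-inducible targets outside the collagen genes, among which ERO1A is counted a second time, had 12 higher and 2 lower of 15 in mRNA. In RPF 7 were higher and 0 lower of 11, and the medians were 0.6 in mRNA and 0.61 in RPF. The shares called were 93.3% and 63.6%, beside 73.6% and 54.4% over all genes. SLC2A1, the glucose transporter, went from 179, 196 and 198 CPM to 681, 676 and 744 CPM in mRNA (1.87 ± 0.075) and from 468, 329.5 and 354 CPM to 1571, 1371 and 1845 CPM in RPF (2.19 ± 0.18, edgeR adjusted p = 1.45e-17). BNIP3L was the lowest called in both (0.66 ± 0.087 and 0.38 ± 0.18), and PFKFB3 was higher in TE (0.72 ± 0.24, adjusted p = 0.0774). The 2 that were lower in mRNA were CA12 (-1.81 ± 0.12) and VEGFA (-0.12 ± 0.069), both named after their values were seen. In the lists with 0 genes called lower by edgeR, 0 were lower at an unadjusted p under 0.05 too, and DESeq2 and voom also called 0. DESeq2 called fewer genes higher in RPF: 1 of 14 other modification enzymes and chaperones, 1 of 17 export genes, 0 of 12 folding genes (2 at an unadjusted p under 0.05) and 4 of 11 hypoxia targets.

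**Figure D5:**
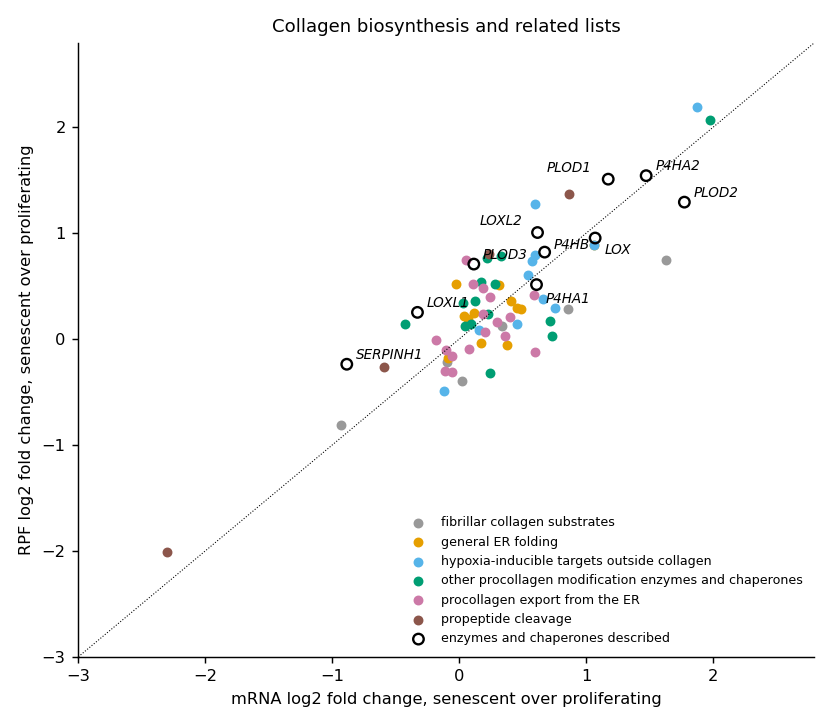
Log2 fold change in RPF against that in mRNA, senescent over proliferating, for the genes of the 6 lists tested in both (colours) and the 10 enzymes and chaperones described (open black circles, named); the dotted line marks equal change. SERPINH1, LOXL1, PLOD3, PLOD1 and LOXL2 lie furthest above the line, with P4HB and P4HA2 above but nearer to it. PLOD2 lies furthest below the line, with LOX and P4HA1 just below it.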

How the data were processed

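Each deposited table gives, per gene symbol and region of the transcript, expected counts: the authors' reads assigned to each region, with fractions where a read was shared, and no normalization. The submitters' processing notes name cutadapt 1.18, Bowtie 1.0.1, SAMtools 1.8 and DESeq2 1.22.2; build, annotation, strand and multi-mapping rules are not given in the sources used here. The RNA-seq tables of the proliferating lysates carry in their names the tag DSMO, which resembles the solvent abbreviation DMSO and which no label explains.

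RNA-seq reads of 5′ UTR, CDS and 3′ UTR were summed as mRNA, Ribo-seq reads of the CDS taken as RPF, as in the study's methods, and both rounded. All 16451 symbols with a CDS read entered; genes passing filterByExpr were tested with edgeR 4.0.16 (R 4.3.3; quasi-likelihood, TMM factors within library type). TE was the state by library type term of 1 fit of 12 libraries with the lysate as block, the pairing coming from the protocol, which split each lysate (the correlation of paired deviations was -0.046 to 0.059). DESeq2 1.42.0 and limma 3.58.1 (voom) were alternatives. Per-lysate TE used an offset of 0.5 reads. CPM are reads of a gene per 1000000 reads of the tested genes, after TMM scaling. Ratios were compared by exact permutation (scipy). The fits were tested on simulated data. Floors (3 counts) cover counting error only. Replicate libraries of a state differed by more than sampling noise. Coordinates are from GENCODE on GRCh37, matched by symbol.

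The unit was expected, not whole, counts, which the design had assumed, hence the rounding. The genes and lists were chosen with earlier results of these data known. Named from each list were the highest and the lowest RPF change among genes called in both mRNA and RPF, any gene called in TE, and fibrillar collagens with at least 10 CDS reads in every Ribo-seq library.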

Additional observations from a re-analysis of the deposited data

How the results depend on the processing

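Among the 10 genes, 168 of 170 recomputed mRNA changes and 142 of 148 RPF changes kept their direction and their side of the threshold, none reversed, and calls numbered 9 to 10 in mRNA and 7 to 9 in RPF. TE depended more on the processing: 127 of 178 values kept both, 28 lost their call, 9 gained one and 14 reversed, all of them for P4HA1 and P4HA2, whose TE changes were near 0 and not called. For P4HA1 (0.03) the TE change was -0.006 with RLE factors, -0.034 with library totals, -0.036 when genes with a single read were kept, -0.053 when every library had to hold 10 counts, -0.067 with DESeq2, -0.02 with TMM over all 12 libraries, -0.045 with no replicate block, -0.039 with RNA-seq reads of the CDS alone, -0.02 with RNA-seq thinned to Ribo-seq depth, and -0.121 to 0.111 with 1 lysate left out. For P4HA2 (0.14) it was -0.067 to 0.2 with 1 lysate left out, negative without Sen 3.

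TE calls among the 10 genes (4) were 1 when genes with a single read were kept, 0 with DESeq2 (1 at an unadjusted p under 0.05), 1 with voom, 2 at an adjusted p under 0.05 and 0 to 4 with 1 lysate left out. Over all genes, mRNA calls (9413) fell to 4305 in thinned RNA-seq. RPF calls (4088) were 610 when every library had to hold 10 counts, which tested fewer genes, 1164 with DESeq2, 2336 with the replicate block and 2681 to 4556 with 1 lysate left out. TE calls (751) were 428 when genes with a single read were kept, 236 when every library had to hold 10 counts, 28 with DESeq2, 47 with voom, 1339 with no replicate block, 438 in thinned RNA-seq, 1183 without Pro 1 and Sen 2, 259 at an adjusted p under 0.05 and 150 to 1146 with 1 lysate left out. The cause of these shifts was not tested.

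The replicate block by number changed no call of the 10 genes in mRNA or RPF. Lysates of the same number in the 2 states deviated together little (r = -0.1 to 0.12 in mRNA and 0.01 to 0.029 in RPF), so the numbers are only names. Ratios within families and to collagen moved by less than their spread in 269 of 270 recomputed values. Ribo-seq depth limits these values: in Pro 1 and Sen 2 the 10 genes have 8 to 149 reads each.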
